A study of Mus musculus with 8 samples.

Results

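The secreted ligand Wnt5a and the nuclear factors Tcf7l1 and Tcf7l2, 3 genes of Wnt signalling, were followed through single epithelial cells of the growing mouse mammary gland. They are 3 of the 14883 gene lines of the deposited table. They were chosen by their levels and shares of cells in the basal, hormone-sensing and secretory classes of these same data, so their class levels are given as a description with no test. The cells came from ducts and terminal end buds, the growing tips of ducts, of mice 5 weeks old and of mixed strain, and live cells were sorted one to a well. The labels name no treatment or genotype, and the 8 libraries form 4 libraries of plate 2 and 4 libraries of plate 1. The labels do not say which library held ducts and which held end buds, nor how many animals were used, so p-values rest on differences among libraries that may be technical only.

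Wnt ligands bind Frizzled receptors at the cell surface. In the branch through beta-catenin they let beta-catenin enter the nucleus, where it joins TCF factors on DNA. Without it, TCF factors hold target genes down together with corepressors. Wnt5a is best known for signalling outside that branch, through receptors such as Ror2 and Ryk, and in the mammary gland it is known to limit duct branching. Tcf7l1 is known mainly as a repressor, including in skin stem cells, and Tcf7l2 is the main TCF factor of the intestinal epithelium.

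In the mm10 genome (GRCm38) Wnt5a lies on the forward strand at chr14:28504750-28527448, Tcf7l1 on the reverse strand at chr6:72626378-72789254 and Tcf7l2 on the forward strand at chr19:55741820-55933654. All are protein-coding genes. Tcf7l1 and Tcf7l2 are close relatives, so the stretch around their longest common run is shown, because reads from such a stretch are where one gene could be taken for the other. Both lines are 90 bases of coding sequence, read 5′ to 3′ from transcripts of the GENCODE annotation, with the bases that both genes share at a position in capitals.
Tcf7l1: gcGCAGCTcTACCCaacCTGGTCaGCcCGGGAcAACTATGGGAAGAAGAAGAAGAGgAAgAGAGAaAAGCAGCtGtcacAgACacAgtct
Tcf7l2: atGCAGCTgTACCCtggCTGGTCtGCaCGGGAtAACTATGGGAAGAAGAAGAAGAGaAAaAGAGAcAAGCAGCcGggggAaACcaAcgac
They share 66 of these 90 bases, and the longest run common to both genes is 23 bases, shorter than the 75-base reads. Wnt5a and its closest relative Wnt5b share at most 29 bases in a row. No 75-base run in the last 500 bases of any annotated transcript of Wnt5a, Tcf7l1 or Tcf7l2 occurred in another gene's transcript.

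Of 768 wells, 114 were kept as cells, each with at least 1500 transcripts and 500 genes. A cell was called basal when its transcripts of the muscle genes Acta2, Tagln and Myl9 outnumbered those of the keratins Krt8, Krt18 and Krt19, and luminal in the reverse case. Luminal cells were called hormone-sensing when Prlr, the prolactin receptor, exceeded Trf, transferrin, and secretory otherwise. This gave 66 basal, 14 hormone-sensing and 28 secretory cells, and 6 cells were left unclassified. Markers outside the rule followed the class names. The basal keratin Krt5 stood at 5.43 transcripts per 10000 in basal cells and at 0 in both luminal classes. The progesterone receptor Pgr stood at 0.392 per 10000 in basal, 10.2 in hormone-sensing and 0.202 in secretory cells. The milk protein gene Lalba stood at 0.0267 per 10000 in basal, 0.0889 in hormone-sensing and 15.1 in secretory cells. Libraries held 101158 to 598625 transcripts and 7 to 31 cells. Basal cells filled libraries 2 and 4 of each plate and luminal cells libraries 1 and 3, apart from 2 basal cells, so basal class and library cannot be told apart. In 8 basal cells a marker list of some other cell type outnumbered the 4 epithelial lists together. All 8 were from plate 1, and 6 were led by the adipocyte list, which stood at 0.0568 to 28.7 per 10000 across basal libraries. Nearly all of it was Fabp4, with 268 transcripts in basal cells against 2 of Adipoq, and Fabp4 is also used by endothelial cells, whose list reached 12.0 per 10000 in a basal library. Of 8 macrophage markers, 6 were at 0 in basal cells. Of the 8 cells led by other lists, 4 adipocyte-led and 1 led by nerve or Schwann markers lay in library 2 of plate 1. That library held 8 basal cells in all. With the 8 cells led by other lists set aside, the basal levels were 1.12 for Wnt5a, 1.85 for Tcf7l1 and 1.61 for Tcf7l2 per 10000. A secretory cell of library 1 of plate 1 was likewise led by the lymphocyte list, with 26 transcripts of that list. It held 0 transcripts of the 3 genes.

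Each of the 3 genes had its own order of classes, and the order differed from gene to gene. Wnt5a was highest in hormone-sensing cells, Tcf7l1 in basal cells and Tcf7l2 in secretory cells. The levels of Wnt5a and of Tcf7l2 ran in opposite orders, with basal cells between the luminal classes for both. For these 2 genes the ranges over libraries did not overlap between any pair of classes. Such a full separation of the 3 classes was found for 97 of 8012 genes with at least 30 transcripts (1.21%). The genes were chosen for these patterns, so nothing is read from that share.

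**Figure D1:**
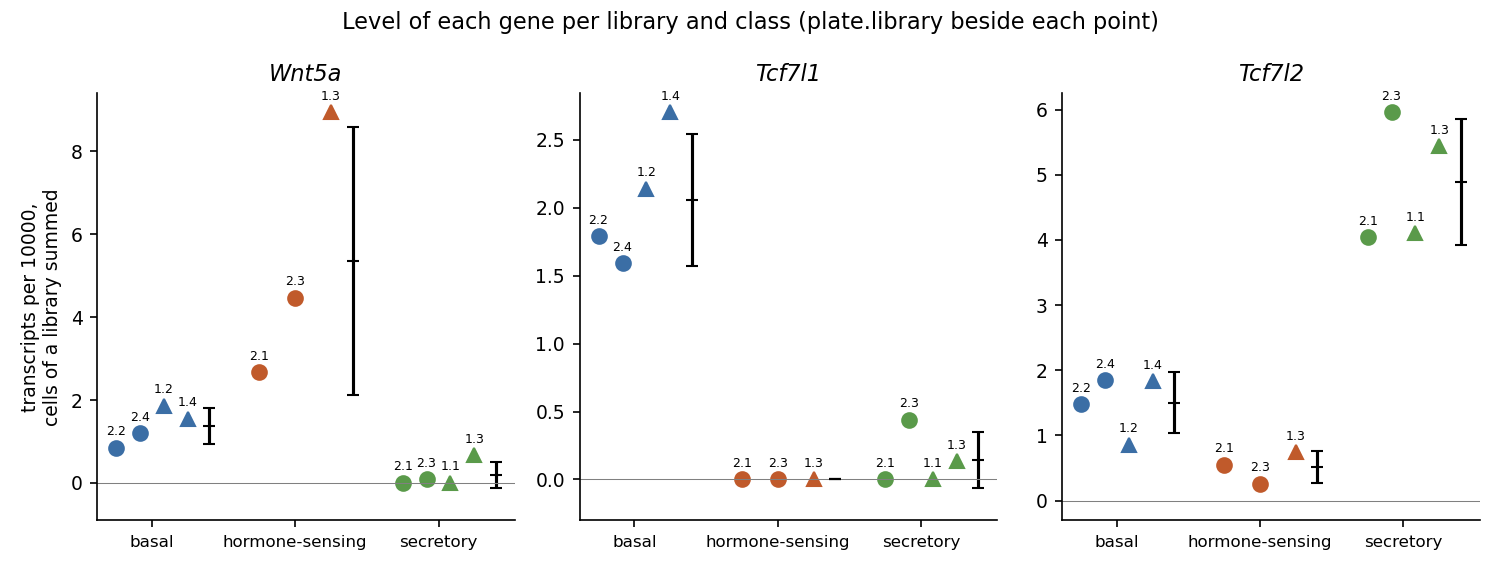
Transcripts per 10000 of Wnt5a, Tcf7l1 and Tcf7l2 with the cells of each library and class summed, for the 11 sums of at least 3 cells; circles are plate 2, triangles plate 1, the label gives plate and library, and bars are the mean and SD over libraries. Hormone-sensing sums are highest for Wnt5a, basal sums for Tcf7l1 and secretory sums for Tcf7l2, on both plates.

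Wnt5a, the ligand, stood at 0.852 and 1.19 per 10000 in basal cells of libraries 2 and 4 of plate 2, and at 1.86 and 1.54 in those of plate 1. In hormone-sensing cells it stood at 2.67 and 4.47 per 10000 in libraries 1 and 3 of plate 2 and at 8.95 in library 3 of plate 1. In secretory cells it stood at 0 and 0.0877 per 10000 in libraries 1 and 3 of plate 2, and at 0 and 0.663 in those of plate 1. Every hormone-sensing sum thus lay above every basal sum, and every basal sum above every secretory sum, an order found for 15 of the 8012 genes (0.187%). The lone hormone-sensing cell of library 1 of plate 1, not counted here, held 1 transcript, 1.68 per 10000. The secretory sum of library 1 of plate 2 held only 12378 transcripts, so its 0 allows a level of up to 2.42 per 10000. Over libraries the mean Wnt5a level was 1.36 ± 0.434 per 10000 (SD, n = 4) in basal, 5.36 ± 3.23 (n = 3) in hormone-sensing and 0.188 ± 0.319 (n = 4) in secretory cells. The summed counts were 171 in hormone-sensing and 6 in secretory cells, a 25.1-fold difference per transcript with an exact 95% interval of 11.3 to 69.3. Such intervals cover counting error only. Without library 3 of plate 1 the levels were 3.26 per 10000 in hormone-sensing and 0.0452 in secretory cells. The gap was wider, but that secretory level rests on 1 transcript, in library 3 of plate 2.

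The Wnt5a transcripts of hormone-sensing cells were spread unevenly. In library 3 of plate 1, 2 cells held 64 and 32 of them, 56.1% of the class total, and the level without those cells was 3.20 per 10000. This value still exceeded the highest basal library, 1.86. That basal value, of library 2 of plate 1, rested mainly on 1 cell, which held 11 of the 13 Wnt5a transcripts. The median cell stood at 0.465 per 10000 among basal, 2.16 among hormone-sensing and 0 among secretory cells. Of the 6 secretory transcripts, 2 came from a single cell in library 3 of plate 1. That cell had 1505 transcripts in all and equal counts of Prlr and Trf, 2 of each, so it only just met the cell limit and fell to the secretory class by the tie. Without it, secretory cells held 4 Wnt5a transcripts in 4 of 27 cells, 0.135 per 10000.

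**Figure D2:**
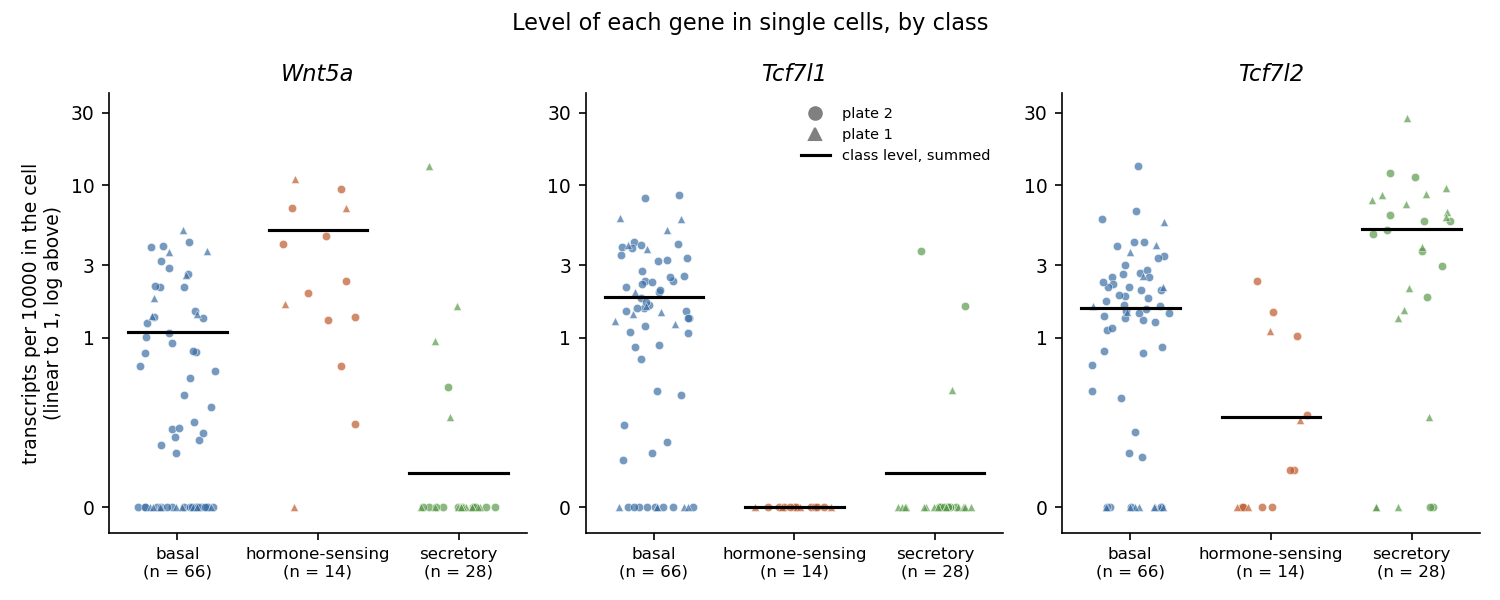
Level of each gene in every classified cell, in transcripts per 10000 of that cell (linear to 1, logarithmic above), by class; circles are plate 2, triangles plate 1, and the line is the level of the class with all its cells summed. The highest Wnt5a point among secretory cells is the cell with 1505 transcripts, in which 2 transcripts make 13.3 per 10000.

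Tcf7l1, the repressor, was found almost wholly in basal cells. It stood at 1.79 and 1.59 per 10000 in basal cells of libraries 2 and 4 of plate 2, and at 2.14 and 2.70 in those of plate 1. In library 2 of plate 1, 12 of the 15 basal transcripts came from 1 cell. In hormone-sensing cells it was at 0 in every library, that is 0 of 14 cells and 0 of 337608 transcripts, which allows a level of up to 0.0889 per 10000 and a share of up to 21.4% of cells with a transcript. A cell that uses the gene may still show no transcript, so this is no limit on cells that express it. In secretory cells 6 transcripts were found in 3 of 28 cells, and the library levels were 0 and 0.438 in plate 2 and 0 and 0.133 in plate 1. Every basal sum lay above every luminal sum, a pattern shared by 482 of the 8012 genes (6.02%). Basal cells held 207 Tcf7l1 transcripts, a level 9.13-fold that of secretory cells (4.12 to 25.2) and at least 20.8-fold higher than the limit of 3 counts over all hormone-sensing cells. The fitted change in basal over luminal sums was 4.35 ± 0.59 on the log2 scale (SE, n = 4 each), and 3.58 from plate 2 alone and 5.72 from plate 1 alone. Without library 3 of plate 2 it was 6.13, since that library held 5 of the 6 luminal transcripts. The secretory level without it was 0.0547 per 10000, against 0.202 with it, so the fold over secretory cells also rests on that library.

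Tcf7l2, the second TCF factor, had the reverse preference to Wnt5a within the luminal cells. In basal cells it stood at 1.48 and 1.85 per 10000 in libraries 2 and 4 of plate 2 and at 0.857 and 1.83 in those of plate 1. It stood at 0.548 and 0.255 per 10000 in hormone-sensing cells of libraries 1 and 3 of plate 2 and at 0.745 in those of library 3 of plate 1. In secretory cells of the same libraries it stood at 4.04, 5.96 and 5.43 per 10000, and at 4.10 in library 1 of plate 1. Basal cells lay between the luminal classes, so each secretory sum exceeded each basal sum, and each basal sum each hormone-sensing sum, an order found for 22 of the 8012 genes (0.275%). The lowest basal and the highest hormone-sensing sum were close to each other and rested on only 6 and 8 transcripts. The mean was 1.51 ± 0.464 per 10000 (SD, n = 4) in basal, 0.516 ± 0.247 (n = 3) in hormone-sensing and 4.88 ± 0.963 (n = 4) in secretory cells. By summed counts the level was 3.27-fold lower in basal than in secretory cells (exact interval 2.61 to 4.08) and 9.67-fold lower in hormone-sensing than in secretory cells (5.91 to 16.7).

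Within the same 3 libraries, the fit of hormone-sensing over secretory sums gave a log2 change of 4.13 ± 0.78 (SE) for Wnt5a and -3.42 ± 0.66 for Tcf7l2, both as a description. Wnt5a reached 5.41 without library 3 of plate 1, and Tcf7l2 -2.85 without library 3 of plate 2. Tcf7l1 had too few luminal transcripts to enter that fit. With both luminal classes summed together this contrast was not seen. Basal over luminal gave -0.998 ± 0.63 for Wnt5a and -0.83 ± 0.42 for Tcf7l2 (n = 4 each), and basal and luminal libraries overlapped for both genes. Without library 3 of plate 1 the Wnt5a change was -0.30. The luminal sums ran from 0.0990 to 5.53 per 10000 for Wnt5a and from 0.821 to 3.86 for Tcf7l2, with different numbers of the 2 luminal classes in each library.

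Shares of cells gave the same order of classes, with all transcripts and at equal depth. A transcript of Wnt5a was found in 39 of 66 basal cells (59.1%, exact Clopper-Pearson 95% interval 46.3 to 71.0), 13 of 14 hormone-sensing cells (92.9%, 66.1 to 99.8) and 5 of 28 secretory cells (17.9%, 6.06 to 36.9). Tcf7l1 was found in 80.3% of basal cells (68.7 to 89.1), against 0 of 14 hormone-sensing and 10.7% of secretory cells (2.27 to 28.2). Tcf7l2 was found in 78.8% of basal (67.0 to 87.9), 57.1% of hormone-sensing (28.9 to 82.3) and 82.1% of secretory cells (63.1 to 93.9). The median depth was 13450 transcripts in basal, 17924 in hormone-sensing and 7102.5 in secretory cells. Thinned to 1500 transcripts a cell, with no cell left out, the share with Wnt5a came to 13.4% of basal, 38.1% of hormone-sensing and 5.63% of secretory cells. The thinned share with Tcf7l2 came to 24.2% of basal, 7.57% of hormone-sensing and 49.1% of secretory cells. Basal and secretory cells, close to each other in their raw share with Tcf7l2, were thus apart at equal depth. For Tcf7l1 the thinned share was 25.4% of basal, 0% of hormone-sensing and 2.88% of secretory cells. For comparison, markers of the other luminal class were read in the same libraries. Pgr was found in 14 of 14 hormone-sensing cells and, with 6 transcripts, in 6 of 28 secretory cells, and Cited1 in 13 and 11. The 6 Wnt5a transcripts lay in 5 of 28 secretory cells, no more cells than for either of these markers. Of the other listed markers outside the rule, Areg lay in 5 secretory cells, Foxa1 in 6, Ly6a in 7, and Esr1 and Prom1 in 2 each. By level, Pgr stood at 10.2 per 10000 in hormone-sensing and 0.202 in secretory cells, and Wnt5a at 5.07 and 0.202. The secretory level of Wnt5a was thus a larger part of its hormone-sensing level than that of Pgr, and likewise than that of Cited1 and Areg. It was a smaller part than that of Esr1 (0.592 and 0.168 per 10000 in that order of classes), Prom1, Foxa1 and Ly6a. Whether these transcripts are background or expression was not tested. Csn3, a milk protein gene, was found in 8 of 14 hormone-sensing cells, as was Tcf7l2, and in 27 of 28 secretory cells. Of the other listed secretory markers outside the rule, Lcn2 was found in 9 and Mfge8 in 7 hormone-sensing cells. Most were found in fewer: Lalba and Wfdc18 in 3 each, Elf5 and Ltf in 2 each, and Kit and Aldh1a3 in 1 each. The Csn3 level was 1.01 per 10000 in hormone-sensing and 69.7 in secretory cells, and that of Tcf7l2 was 0.533 and 5.15, a larger part of its secretory level. Krt5 was found in 53 of 66 basal and in 0 of 42 luminal cells, whose libraries held only 2 basal cells.

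**Figure D3:**
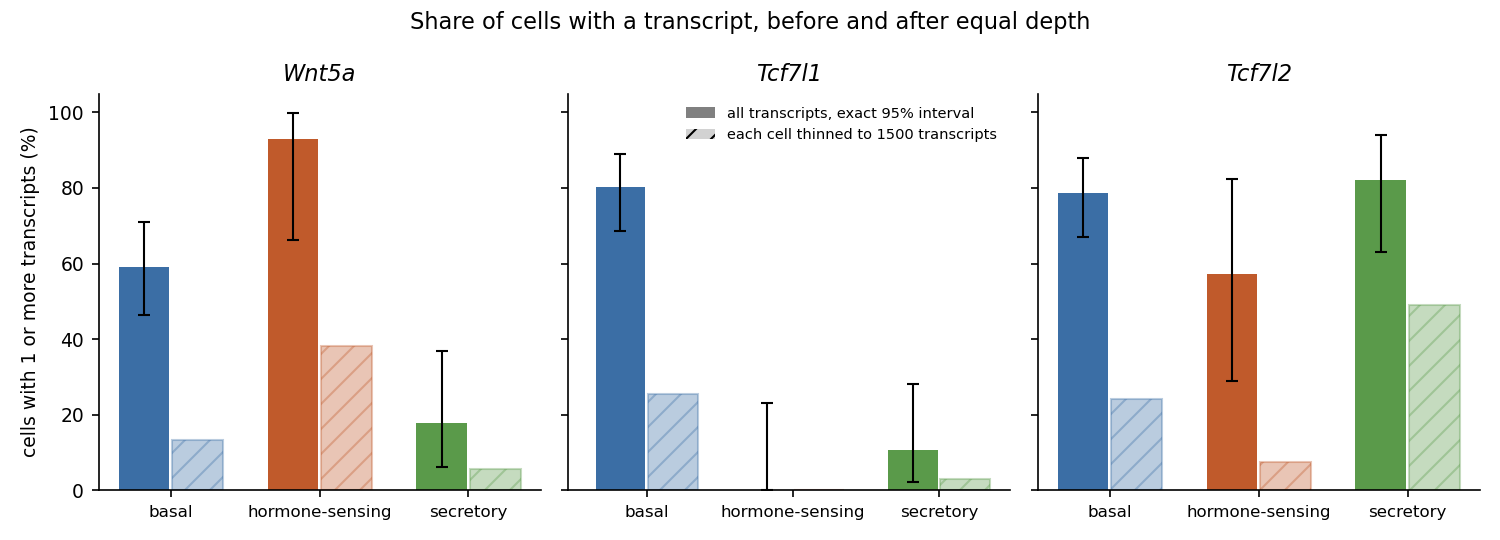
Percent of cells of each class with 1 or more transcripts of each gene; solid bars use all transcripts, with exact 95% binomial intervals, and hatched bars give the expected share with each cell thinned to 1500 transcripts. Basal and secretory cells differ little in the solid bars of Tcf7l2 (78.8% and 82.1%) and more in the hatched ones (24.2% and 49.1%).

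Joint detection moved with depth. All 3 were found in 31 of 66 basal cells, whose median depth was 22009 transcripts, against 7015 in the other basal cells. Among the 33 deeper basal cells Tcf7l1 was found in 33, and among the 33 shallower ones in 20, while its level was 1.81 and 2.02 per 10000 in that order. Both TCF factors were found together in 42 basal cells, so they were not kept to separate basal cells. In hormone-sensing cells all 8 cells with Tcf7l2 also held Wnt5a, and in secretory cells 4 cells held both. The Tcf7l2 level of basal cells differed more with depth, at 1.39 per 10000 in the deeper and 2.49 in the shallower cells.

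At the limits of the class rule, 10 cells just above the cell limit (1505 to 2502 transcripts) held 3 transcripts of Wnt5a, 5 of Tcf7l1 and 4 of Tcf7l2. The 10 wells just outside (1459 to 3659 transcripts, 61 to 893 genes) held 1, 0 and 4 in that gene order. Some of these wells met the transcript limit and failed the gene limit. Of basal cells, 7 were ahead by only 1 to 3 marker transcripts, and they held 0, 6 and 3. The 2 hormone-sensing cells with the smallest lead of Prlr held 3 Wnt5a and 2 Tcf7l2 transcripts, and the 5 secretory cells nearest to that limit held 2 and 5. The 6 unclassified cells held no Wnt5a, 2 Tcf7l1 and 1 Tcf7l2 transcripts, and all 6 were led by markers of other cell types.

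Plates were the only groups that the labels name, and they did not choose the genes, so a test is given. Over all epithelial cells of a library, Wnt5a stood at 2.43, 0.852, 1.87 and 1.19 per 10000 in libraries 1 to 4 of plate 2, against 0.0990, 1.86, 5.41 and 1.54 in plate 1. Tcf7l1 stood at 0.124, 1.79, 0.260 and 1.59 per 10000 in plate 2, against 0, 2.14, 0.105 and 2.70 in plate 1. Tcf7l2 stood at 0.809, 1.48, 3.64 and 1.85 per 10000 in plate 2, against 3.86, 0.857, 2.57 and 1.83 in plate 1. The plates overlapped for all 3 genes. The fitted log2 change of plate 2 over plate 1 was -0.56 ± 0.78 for Wnt5a, -0.27 ± 1.14 for Tcf7l1 and -0.27 ± 0.54 for Tcf7l2 (SE, n = 4 each), with an edgeR Benjamini-Hochberg adjusted p of 1.00 for each. No gene was called in that fit, 0 of 3649 (0.0%), where 109 genes had an unadjusted p under 0.05 and DESeq2 called 1. With the library number as block, 2 genes were called, and the changes were -0.19 for Wnt5a, 0.0020 for Tcf7l1 and -0.18 for Tcf7l2.

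Around these genes, 124 other genes of the pathway were listed by role, and 101 of them had a line in the table. In basal over luminal sums 34 of the 101 could be tested with edgeR, and 4 were higher and 3 lower at an adjusted p under 0.05. Over all genes 505 of 3420 were called (14.8%), 8.07% higher and 6.7% lower. The median of the 34 log2 change was 0.24, against -0.00012 for all genes tested. In hormone-sensing over secretory sums 25 could be tested, and 1 was higher and 2 lower, against 297 of 2458 genes called over all (12.1%), 5.17% higher and 6.92% lower. The median of the 25 was 0.16, against 0.11 for all genes tested. In the plate comparison 0 of 35 were called. Other runs tested other numbers of genes, so calls over all genes follow in brackets. In basal over luminal, 13 of 44 were called without library 1 of plate 1 (761 of 4261). It was 13 of 44 without library 1 of plate 2 (674 of 4226) and 11 of 41 without library 2 of plate 1 (848 of 4249). With DESeq2, 12 of 100 were higher and 5 lower (1044 of 14386). With no filter on low counts, 17 of 100 were higher and 6 lower (1511 of 14386). From plate 2 alone 14 of 55 were higher and 1 lower (939 of 5609), and from plate 1 alone 0 of 26 were called (163 of 2348). In hormone-sensing over secretory, 1 of 20 was called without library 3 of plate 1 (120 of 2037). Without library 1 of plate 2 it was 0 of 22 (11 of 1989).

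**Figure D4:**
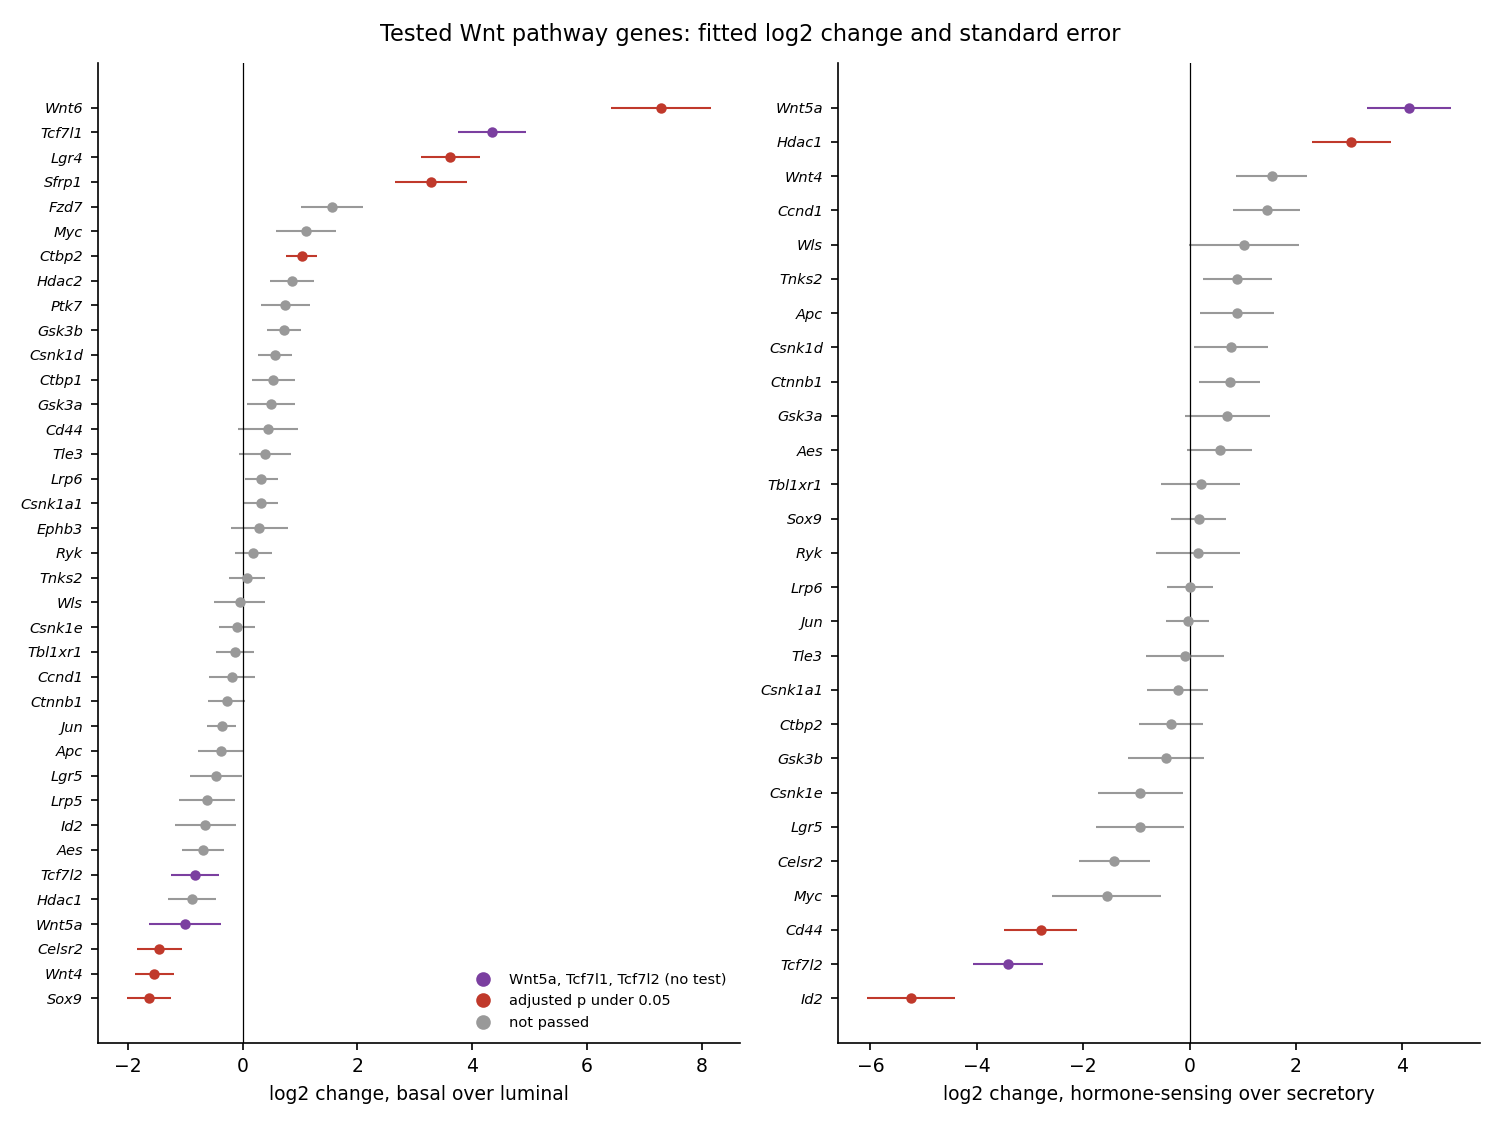
Fitted log2 change with its standard error for each tested gene of the pathway lists and for Wnt5a, Tcf7l1 and Tcf7l2 themselves, basal over luminal on the left and hormone-sensing over secretory on the right; red marks an edgeR adjusted p under 0.05, grey a gene that did not pass and purple the 3 genes given without a test. Of the red genes, 4 lie right and 3 left of 0 on the left side, and 1 right and 2 left of 0 on the right side.

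Among ligands, Wnt6 was higher in basal cells and Wnt4 lower. Wnt6 had 103 transcripts in basal sums and 0 in luminal sums, a level 19.6-fold the limit of 3 counts over all luminal sums (edgeR adjusted p = 0.00023). Wnt4, which relays the progesterone signal in the mammary gland, averaged 0.845 ± 0.199 per 10000 in basal and 2.30 ± 0.802 in luminal libraries (SD, n = 4 each), a log2 change of -1.54 ± 0.34 (edgeR adjusted p = 0.0074). It was -0.95 and not called from plate 1 alone. Wnt4 averaged 3.83 ± 2.87 per 10000 in hormone-sensing and 0.940 ± 0.928 in secretory cells of the same 3 libraries, and this change of 1.55 ± 0.67 did not pass (edgeR adjusted p = 0.12). Wnt5b, the closest relative of Wnt5a, had too few transcripts for the fits and is named after its values were seen. It had 10 transcripts in basal, 0 in hormone-sensing and 51 in secretory cells, and so was at 0 in the class where Wnt5a was highest.

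**Figure D5:**
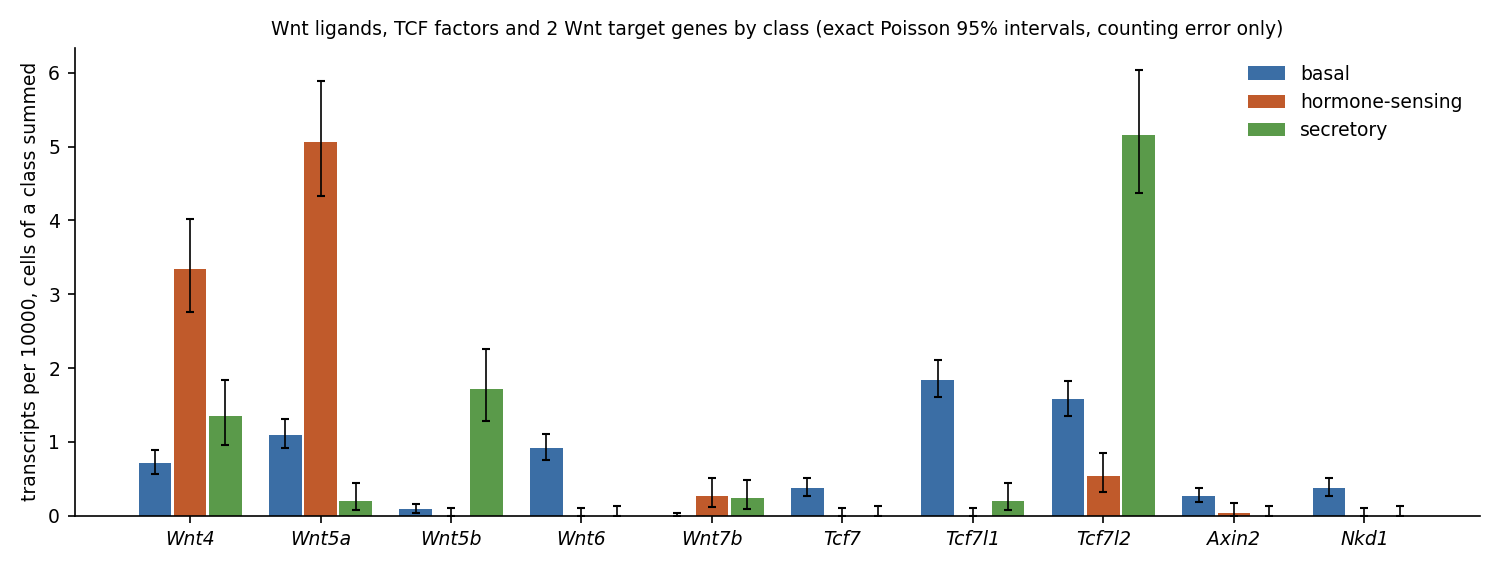
Transcripts per 10000 of 5 Wnt ligands, the TCF factors Tcf7, Tcf7l1 and Tcf7l2, and the Wnt target genes Axin2 and Nkd1, with all cells of a class summed; bars are exact Poisson 95% intervals, which cover counting error only. Wnt5a (5.07 in hormone-sensing, 0.202 in secretory cells) and Wnt5b (0 in hormone-sensing, 1.72 in secretory cells) differ in opposite directions between the luminal classes.

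None of the Frizzled, Lrp, Ryk and Ptk7 receptor genes that edgeR tested passed the threshold in either class comparison. Ryk, a Wnt5a receptor, had a log2 change of 0.19 ± 0.32 in basal over luminal sums (edgeR adjusted p = 0.78), and its levels were 1.22 ± 0.275 and 1.12 ± 0.343 per 10000 in that order of classes (SD, n = 4 each). Ptk7, a polarity coreceptor, had a change of 0.75 ± 0.43 and Fzd7, a Frizzled receptor, one of 1.55 ± 0.54, neither past the threshold (edgeR adjusted p = 0.30 and 0.076). Fzd7 did pass without library 1 of plate 1 (2.30), with no filter on low counts (1.56) and from plate 2 alone (2.68), where Ptk7 passed too (1.53). The coreceptor Lrp6 had a change of 0.33 ± 0.29 (edgeR adjusted p = 0.54). The polarity cadherin Celsr2 was lower in basal cells (log2 change -1.45 ± 0.39, edgeR adjusted p = 0.024), but no longer passed without library 4 of plate 1 (-1.41) or without libraries 2, 3 or 4 of plate 2 taken singly (-1.24, -1.21 and -1.43). Ror2, the best known Wnt5a receptor, was too low for the fits, with 41 transcripts in basal, 4 in hormone-sensing and 0 in secretory cells. Fzd3 was likewise not tested and had 98 transcripts in basal cells and 1 in each luminal class. Both are named after their values were seen.

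Of the genes that tune the response, Lgr4, a receptor for the Wnt-enhancing R-spondins, was higher in basal cells, with 112 transcripts against 5 (log2 change 3.62 ± 0.51, edgeR adjusted p = 0.00023). Its relative Lgr5 was not called, at -0.46 ± 0.46 in basal over luminal (edgeR adjusted p = 0.60) and -0.94 ± 0.83 in hormone-sensing over secretory sums (edgeR adjusted p = 0.61). Sfrp1, a secreted Wnt inhibitor, was higher in basal cells with 95 transcripts against 6 (log2 change 3.28 ± 0.63, edgeR adjusted p = 0.0025), though not called from plate 1 alone (3.07). Other listed inhibitors did not enter the fits. Sostdc1, Dkk3 and Wif1 had 237, 89 and 88 transcripts in basal cells and 0 in both luminal classes. Sfrp2 went the other way, with 6 in basal, 0 in hormone-sensing and 25 in secretory cells. All of these are named after their values were seen. Beta-catenin itself, Ctnnb1, had 5.41 ± 0.694 per 10000 in basal and 6.63 ± 3.34 in luminal libraries, a log2 change of -0.28 ± 0.33 that did not pass (edgeR adjusted p = 0.66). Of beta-catenin and its destruction complex 8 genes were tested in each class comparison, and none passed.

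Of the other TCF factors, Tcf7 had 42 transcripts in 24 basal cells and 0 in both luminal classes. It was too low for the fits and is named after its values were seen. Basal cells thus held transcripts of 3 TCF genes, secretory cells mainly those of Tcf7l2, and hormone-sensing cells 18 transcripts of Tcf7l2 and none of the other two. Among cofactors, the corepressor Ctbp2 was higher in basal cells (log2 change 1.03 ± 0.26, edgeR adjusted p = 0.017), though not without library 4 of plate 1 (0.91) or libraries 2 or 3 of plate 2 taken singly (1.03 and 0.89). Hdac1, a histone deacetylase, was higher in hormone-sensing than in secretory cells, at 3.41 ± 0.875 against 0.278 ± 0.373 per 10000 (SD, n = 3 each; log2 change 3.04 ± 0.74, edgeR adjusted p = 0.00071). It no longer passed without library 3 of plate 1 (2.52) or without library 1 of plate 2 (2.94). The same held with cells of at least 3000 transcripts (2.92), a limit that also drops library 1 of plate 2 from the fit. With at least 5 cells per sum and no block, only library 1 of plate 2 was left on the hormone-sensing side, and the change was 2.40. Aes, a short Groucho relative, was not called in either comparison (edgeR adjusted p = 0.26 and 0.71).

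Genes often listed as Wnt targets went in different directions. Axin2 and Nkd1, feedback inhibitors that rise with beta-catenin signalling, were too low to test and had 30 and 42 transcripts in basal cells, against 1 and 0 in hormone-sensing and 0 and 0 in secretory cells. They are named after their values were seen. Sox9, a transcription factor of luminal progenitors among other cells, was lower in basal cells at 2.76 ± 1.36 against 8.71 ± 3.35 per 10000 in luminal libraries (SD, n = 4 each; log2 change -1.63 ± 0.39, edgeR adjusted p = 0.011). It was not called from plate 2 alone (-1.46) or plate 1 alone (-1.80). Id2, an inhibitor of helix-loop-helix factors, had 3 transcripts in hormone-sensing and 81 in secretory sums, 44.4-fold lower in hormone-sensing cells with an interval of 14.6 to 220 (edgeR adjusted p = 1.5e-08). Its call was lost without library 1 of plate 2 and with cells of at least 3000 transcripts, where the log2 change was -5.26 and -5.28. That limit on cells also drops library 1 of plate 2 from the fit, so the runs are not separate checks. Cd44, a hyaluronan receptor, was lower in hormone-sensing cells (log2 change -2.80 ± 0.68, edgeR adjusted p = 0.00071). The Cd44 call was lost without library 3 of plate 1 (-2.25), without library 1 of plate 2 (-3.05) and with no filter on low counts (-2.57). It was also lost with cells of at least 3000 transcripts (-3.03), the limit that drops library 1 of plate 2. With at least 5 cells per sum and no block, only library 1 of plate 2 was left on the hormone-sensing side, and the change was -3.25.

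Over the 11 sums of a library and class, the genes with the most similar pattern were sought by Pearson's r of log2(CPM + 10) among 8009 genes. These sums share their libraries and classes, so r is given with no p. For Wnt5a they were Psmg2 (r = 0.98), Psma7 (0.92), Kif5c (0.91), Pex14 (0.91) and Nlk (0.91), the last being a kinase that can phosphorylate TCF factors. Nlk had 45 transcripts in basal, 41 in hormone-sensing and 4 in secretory cells. For Tcf7l1 they were Tspan5 (0.98) and the genes Mdk, Fat2, Btbd11 and Palm (0.97 each), all with 0 transcripts in hormone-sensing cells. For Tcf7l2 they were Id2 (0.98), BC006965 (0.96), Lipa (0.95), Cst3 (0.94) and Mfge8 (0.94), and Id2 also stands in the target list above. Between the 3 genes themselves r was -0.83 for Wnt5a and Tcf7l2, 0.085 for Wnt5a and Tcf7l1 and 0.080 for Tcf7l1 and Tcf7l2.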

How the data were processed

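Single cells were processed by SORT-seq, an automated CEL-seq2 that counts tagged transcript molecules, with 75-base paired reads from a NextSeq500 (per the labels' protocols). The submitters' processing notes name BWA 0.6.2-r126 and mm10 without a role. The deposited values are expected counts, that is estimated molecules per gene and well; 533073 of 533078 values above 0 came out whole within 1e-06 once the correction for molecules sharing a tag in a pool of 256 was undone. What else the authors filtered is not given in the sources used here.

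Counts were rounded per well, and 81 spike-in lines were kept out of totals. No pair of wells was identical, and doublets were not called. Levels are transcripts per 10000 of the summed cells; libraries held 101158 to 598625 transcripts. Ratios of counts carry exact 95% intervals, and a count of 0 a limit of 3 counts. Sums per library and class were tested with edgeR 4.0.16 in R 4.3.3 (quasi-likelihood test after TMM and filterByExpr, threshold 0.05 on the Benjamini-Hochberg adjusted p over all genes tested): basal over luminal, 4 against 4 sums of at least 5 cells; hormone-sensing over secretory with the library as block, in the 3 libraries with at least 3 cells of both; and plate 2 over plate 1, 4 against 4. DESeq2 1.42.0 was an alternative, beside size factors, filters, other limits on cells, and each library left out. Standard errors were taken as the log2 change divided by the square root of F, and are approximate. The scripts were tested on simulated data.

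The members and the pathway lists were chosen with earlier results of these data known. Named pathway genes are those that passed, up to 4 per list, and up to 2 others per list by highest level; exceptions are marked. Same-numbered libraries of the plates deviated together (r = 0.36, 0.42, 0.56 and 0.63), so the result with library number as block is printed beside the plate comparison. Library 1 of plate 2, however, correlated more with library 3 of plate 1 (0.57), and library 2 of plate 2 with library 4 of plate 1 (0.66), than with their own numbers; the pairs of high r hold the same cell class. Lef1 was on the pathway lists but had no line in the values used here, so it was not analysed.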

Additional observations from a re-analysis of the deposited data

Results flagged for a closer look

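In secretory cells, the Wnt5a level of library 3 of plate 1, 0.663 per 10000, stood apart from the other 3 libraries, which lay between 0 and 0.0877. The level rests on 5 transcripts in 4 of 9 cells, among them the cell with equal Prlr and Trf. The same library had the highest Wnt5a level in hormone-sensing cells, 8.95 per 10000. Of 12 sets of libraries examined in this way, chance flags about 1 in 20.

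For Tcf7l1 the difference between plates went opposite ways in the libraries of basal and of luminal cells. Plate 2 minus plate 1 averaged -0.49 on the log2(CPM + 10) scale in libraries 2 and 4 and 0.99 in libraries 1 and 3. The difference between these was not tested, and the luminal libraries 1 and 3 held few transcripts of the gene, 2 and 5 in plate 2 and 0 and 2 in plate 1.

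The 654 wells not kept as cells held 26 transcripts of Wnt5a, 23 of Tcf7l1 and 36 of Tcf7l2. Of the Tcf7l1 transcripts, 20 lay in libraries 2 and 4, at 2.91 per 10000, and 3 in libraries 1 and 3, at 0.333 per 10000. Of the Wnt5a transcripts, 7 lay in libraries 2 and 4 and 19 in libraries 1 and 3, where 10 were in library 3 of plate 1 and 8 in library 3 of plate 2.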

How the results depend on the processing

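The class levels of the 3 genes moved by less than 1 SD between libraries under each alternative run, with 1 exception: Wnt5a in secretory cells came to 0.612 per 10000 with every cell thinned to 1500 transcripts, which gives the shallow cell with 2 transcripts the weight of any other. That SD is wide for low levels: with 1 library left out, Wnt5a ran from 3.26 to 6.89 per 10000 in hormone-sensing and from 0.0452 to 0.297 in secretory cells, and Tcf7l1 from 0.0547 to 0.297 in secretory cells. In basal over luminal sums the 505 calls became 1044 with DESeq2 and 1511 with no filter on low counts. They became 835 with other-type cells set aside and 786 with marker sums apart by at least 10. Both of these limits also drop library 2 of plate 1, which keeps fewer than 5 basal cells, and without that library alone 848 were called. From plate 2 alone the calls became 939 and from plate 1 alone 163 (both chosen after seeing the data). With 1 library left out they ran from 436 to 848. Tcf7l1 stood at 3.58 from plate 2 and 5.72 from plate 1 alone, and at 3.92 to 6.13 with 1 library left out. Wnt5a ran from -1.39 to -0.30 with 1 library left out. Ctnnb1, not called, turned to 0.12 from plate 2 alone and ran from -0.51 to 0.078 with 1 library left out, Lgr5 to 0.23 from plate 1 alone, and Ryk ran from -0.0088 to 0.39 with 1 library left out. In hormone-sensing over secretory sums the 297 calls became 168 with DESeq2, 42 with cells of at least 3000 transcripts, 186 with at least 5 cells per sum and no block, 120 from plate 2 alone, and 11 to 140 with 1 of the 3 libraries left out; 231 were called with no replicate block. Wnt5a came to 5.41 from plate 2 alone and to 3.76 to 5.41 with 1 library left out, and Tcf7l2 to -3.69 to -2.85. In plate 2 over plate 1, DESeq2 called 1 gene and the replicate block 2; leaving out a library gave 0 each time. Tcf7l1 turned to 0.0020 under the block, and Tcf7l2 to 0.26 in basal cells only. With 1 library left out the values ran from -0.93 to 0.48 for Wnt5a, from -0.73 to 0.60 for Tcf7l1 and from -0.77 to 0.13 for Tcf7l2, so the direction between plates changed with the libraries kept. Where no construction is named, the cause was not tested. A block by library number in basal over luminal could not be fitted, since each number held 1 class. Few cells, 14 of them hormone-sensing, and few transcripts per gene limit each value.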
